A study of Mus musculus with 6 samples.

Results

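The genes described here encode 46 proteins that make up or control the lysosome, the acidic organelle in which cells break down glycans, lipids and proteins. They were chosen by gene name, and all 46 were found among the 34745 gene rows of the deposited expression table. By role they comprise 3 galactosidases, 11 other glycosidases and sulfatases, 8 genes of lipid breakdown and cholesterol export, 11 proteases, progranulin, 5 membrane proteins, 4 genes of the proton pump and the 3 TFEB family transcription factors. RNA-seq was performed on NOR-10, a mouse skeletal muscle fibroblast line, in 2 groups with n = 3 libraries each. The D-gal group was kept in medium with 20 mg/mL D-galactose (D-gal) for 3 days, a treatment used to induce senescence, and the control group received PBS for the same time. No gene was altered in either group, and nothing in the labels says whether the 3 libraries of a group came from separate cultures, so the p-values measure the spread between these libraries, which may be technical. The question here is how the lysosomal genes differed between the groups.

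Lysosomal hydrolases are made in the endoplasmic reticulum, tagged with mannose 6-phosphate in the Golgi and carried to the lysosome, where a proton pump keeps the lumen acidic. TFEB, TFE3 and MITF switch on many of these genes together through an E-box-like promoter element known as CLEAR, and they enter the nucleus when mTORC1 at the lysosome is inactive. GLB1, the lysosomal beta-galactosidase, is the enzyme behind the senescence-associated beta-galactosidase stain, and galactose is the sugar that it, GLA and GALC release from glycoconjugates. Most of the listed genes are active in nearly every cell type, and many of the hydrolases are abundant in macrophages.

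Library totals were 16876087 to 20830349 counts under PBS against 13759108 to 15157064 under D-gal. Of 8 fibroblast markers, 7 had at least 10 counts in every library, while Lum had at most 1. Their summed level was 6954 to 7110 CPM (counts scaled by the library total) in the control group and 4697 to 4818 CPM in the D-gal group, with Col1a1, Col1a2, Thy1, Vim and Dcn lower and Pdgfrb higher (log2 fold change 0.19), while Pdgfra did not pass the test (adjusted p = 0.0679, edgeR). The part of this shift in the results on the lysosomal genes was not tested. The myogenic regulators Pax7, Myf5 and Myod1 had a count of 0 in every library, and 8 myogenic markers together reached at most 5.98 CPM. A set of 4 endothelial markers summed to 3.12 to 5.34 CPM in the 6 libraries. The 8 macrophage markers were low but uneven, and their sum was 23.8 to 72.8 CPM in the control group and 39.7 to 44.8 CPM in the D-gal group. Only 3 of the 8 had at least 10 counts in every library, and Aif1 and Adgre1 had at most 3. Control replicate 1 had 627 counts of Lyz2 and 141 of Csf1r, whereas the other 5 libraries had 46 to 114 of Lyz2 and 13 to 38 of Csf1r. Cd14 went the other way, with 588, 443 and 287 counts in control replicates 1 to 3 and 499, 532 and 541 in D-gal replicates 1 to 3, and was higher under D-gal (log2 fold change 0.62, adjusted p = 0.0329, edgeR).

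**Figure D1:**
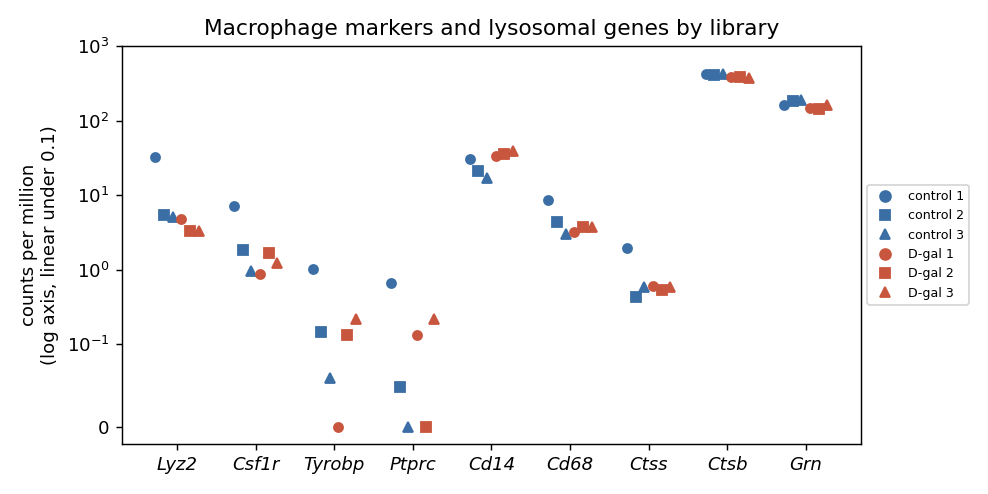
CPM (log axis, linear under 0.1) of 5 macrophage markers and 4 lysosomal genes in each of the 6 libraries; blue, control; red, D-gal; the marker shape gives the replicate number. Control replicate 1 is the highest library for Lyz2, Csf1r, Tyrobp, Ptprc, Cd68 and Ctss, but not for Cd14, Ctsb or Grn.

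As a group, the lysosomal genes were more often lower than higher under D-gal, by small amounts. Counts were normalized by edgeR's TMM method and tested over the 13407 genes that passed a filter on low counts. Of the 46 genes, 45 passed the filter. At an adjusted p under 0.05 (edgeR, quasi-likelihood), 19 of the 45 were lower under D-gal, while 17.8% of all genes tested were lower. In the other direction, 8 of the 45 were higher, near the 16.9% of all genes tested. Calls depend on abundance, so the shares were also taken among genes with a mean of at least 500 normalized counts, a limit chosen after seeing the data. There, 16 of 33 listed genes were lower, against 24.1% of all 6482 such genes, and 4 of 33 were higher, against 19.6%.

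The changes were limited in size. The log2 fold changes of the 45 genes lay between -0.57 and 0.67, with a median of -0.09, while the median of all genes tested was 0.0036. None of the 45 reached the study's criterion for a differentially expressed gene, which adds a size limit of 1 on the log2 scale and which 4.21% of all genes tested met. The count was also 0 with DESeq2 and with limma on the FPKM values, taken as log2(FPKM + 1). There, 524 and 120 of all genes met the criterion, in place of 564 with edgeR, so the limma count says less. Without the size criterion, 27 of the 45 genes had an adjusted p under 0.05 (edgeR), against 34.8% of all genes tested. In 21 of the 45, all D-gal values were under the lowest control value, as they were in 25.0% of all genes tested, and in 10 all D-gal values were over the highest control value, as in 24.1% of all. Each of these has p = 0.1 in a two-sided exact permutation test, the smallest that 3 against 3 libraries allow. The 46 genes together held 0.746%, 0.752% and 0.756% of the counts in control replicates 1 to 3 and 0.690%, 0.693% and 0.716% in D-gal replicates 1 to 3, so the groups did not overlap. Abundant genes weigh most in this sum. Psap alone held 0.119%, 0.116% and 0.115% in control replicates 1 to 3, against 0.0969%, 0.0950% and 0.0969% in D-gal replicates 1 to 3. In these bulk libraries, fewer cells of a type and less RNA per cell cannot be told apart.

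**Figure D2:**
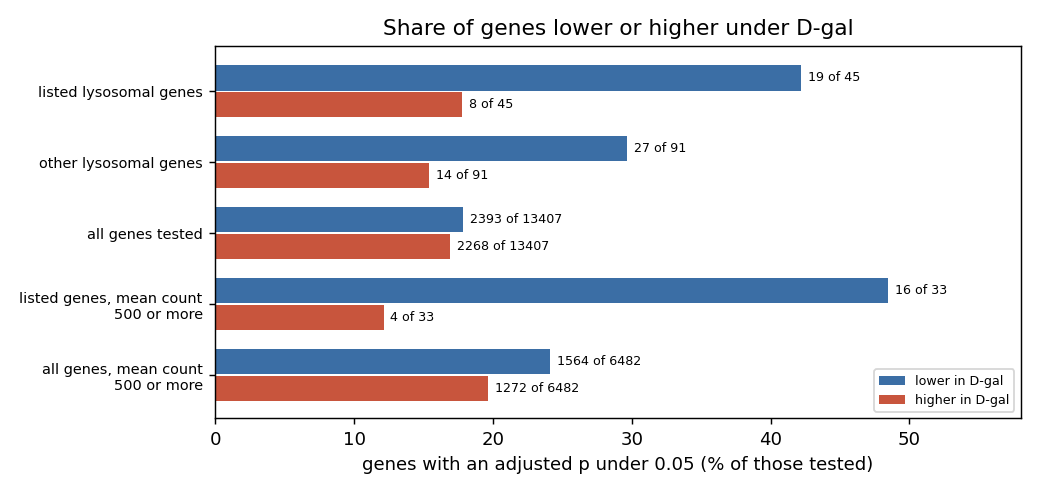
Share of genes tested (%) with an adjusted p under 0.05 that were lower (blue) or higher (red) in the D-gal than in the control group, for the listed lysosomal genes, the other lysosomal genes and all genes tested, and again for genes with a mean of at least 500 normalized counts. The lower share exceeds the higher share in the listed genes (19 against 8 of 45), and the bars for all genes differ less (2393 against 2268 of 13407).

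The alternatives did not treat all 27 genes alike. Under all of 13 alternatives (another tool, scaling, filter or unit, thinned counts, the replicate block, or 1 library left out), 10 of the 19 lower genes and 5 of the 8 higher genes kept their call. The lower ones were Gla, Npc2, Psap, Lamp2, Mcoln1, Scarb2, Arsb, Ctsb, Ctsl and Tpp1, and the higher ones were Smpd1, Gaa, Idua, Ctsf and Ctsh. With control replicate 1 left out, 16 genes were lower and 7 higher, and 3711 of all genes passed in place of 4661. The calls of Npc1 (adjusted p = 0.0683), Ctsk (0.0992), Ctsz (0.0903), Lgmn (0.0794) and Atp6v0d1 (0.0602, all edgeR) were lost without that library, and Cd63 gained one. With control replicate 2 or D-gal replicate 2 left out, 11 were lower, and 12 without control replicate 3. Each of these fits has 1 library fewer, and the part of this in the lost calls was not tested.

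RefSeq promoter windows (GRCm38.p6, from 250 bases before to 50 bases after the start) were matched by symbol for 40 of the 46 genes, in 48 windows. They were searched for the 6-base E-box CACGTG and for the 8-base CLEAR core TCACGTGA. Both words read the same on either strand, and the longer one contains the shorter. CACGTG was in 15 of the 48 windows (31.2%) and in 7.15% of all 32851 windows, and TCACGTGA was in 6 of the 48 (12.5%) and in 0.974% of all. Among genes with a window, CACGTG was found in 6 of 16 lower genes, 2 of 6 higher genes and 7 of 17 tested genes without a call. TCACGTGA was found in 3, 0 and 3 of these. A match is a sequence of letters and not a measured binding site. The following stretches are shown because genes with the same word differed in their response. Gla, which fell, has the 8-base word in 2 copies, and Mcoln1 and Atp6v0d1, which have it too, were also lower. Ctsd, Ctsa and Atp6v1a hold the same word and did not pass the test. The Atp6v0d1 copy does not lie wholly before the start and is not shown. Capitals mark the word, and all stretches read 5′ to 3′ on the strand of the gene and lie before the RefSeq start.
Gla (chrX:134601174-134601252, minus strand): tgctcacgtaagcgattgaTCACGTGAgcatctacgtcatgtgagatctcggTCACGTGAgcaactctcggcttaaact
Mcoln1 (chr8:3500462-3500491, plus strand): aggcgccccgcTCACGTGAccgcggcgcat
Ctsd (chr7:142387908-142387937, minus strand): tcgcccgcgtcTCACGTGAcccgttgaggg
Ctsa (chr2:164833749-164833772, plus strand): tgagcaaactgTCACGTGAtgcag
Atp6v1a (chr16:44139373-44139402, minus strand): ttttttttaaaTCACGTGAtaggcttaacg
Lamp1 (chr8:13159080-13159134, plus strand): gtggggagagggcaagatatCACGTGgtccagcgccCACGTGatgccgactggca
Glb1 (chr9:114401018-114401047, plus strand): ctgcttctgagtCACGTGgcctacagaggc
Gaa (chr11:119267811-119267840, plus strand): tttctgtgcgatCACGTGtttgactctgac
Ctsf (chr19:4855074-4855103, plus strand): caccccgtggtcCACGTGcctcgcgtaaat
Ctsl (chr13:64370739-64370768, minus strand): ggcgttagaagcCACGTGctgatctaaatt
Lamp1 has 4 copies of CACGTG in its window, of which the stretch shows 2. The 5 genes from Lamp1 to Ctsl hold the 6-base word without the 8-base one, and among them Gaa and Ctsf were higher, Lamp1 and Ctsl lower, and Glb1 not past the threshold. Arsa, Naglu and Sgsh, which did not pass the test, and Lgmn, which was lower, also hold only the 6-base word and are not shown.

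Of the 3 galactosidases, Gla fell, Galc rose and Glb1 did not pass the test. Glb1 (ENSMUSG00000045594; chromosome 9, 114401076 to 114474376 on GRCm38) had 815, 756 and 802 normalized counts under PBS against 786, 738 and 794 under D-gal. These groups overlap, and the log2 fold change was -0.03 with a 95% confidence interval from -0.16 to 0.10 (adjusted p = 0.685, edgeR). The paper used the senescence-associated beta-galactosidase stain on D-gal-treated NOR-10 cells as evidence of cellular aging. The Glb1 counts are of mRNA and do not measure the enzyme or the stain. Glb1 shares 5.13% of its words of 31 bases with other genes and overlaps Tmppe on its own strand. Gla (ENSMUSG00000031266) encodes alpha-galactosidase A, which removes terminal alpha-linked galactose from glycolipids. It lies on chromosome X, from 134588149 to 134601125. Its normalized counts were 432, 459 and 495 under PBS against 301, 306 and 349 under D-gal, so all 3 D-gal values were under the lowest control value. Gla fell by 0.54 on the log2 scale (standard error, SE, 0.09, adjusted p = 0.00241, edgeR), with -0.61 to -0.44 over the alternatives. Galc (ENSMUSG00000021003, chromosome 12, 98202304 to 98259459) encodes galactosylceramidase, which cleaves galactose from galactosylceramide. Its normalized counts were 339, 300 and 318 under PBS against 373, 383 and 380 under D-gal, without overlap. The log2 fold change of 0.25 (SE 0.07, adjusted p = 0.035, edgeR) lost its call in 8 of 13 alternatives, with adjusted p-values of up to 0.125.

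Cathepsin A and neuraminidase 1 form a complex with beta-galactosidase in the lysosome, and cathepsin A protects both enzymes there. Ctsa had 3420, 3567 and 4059 normalized counts under PBS against 3705, 3629 and 3973 under D-gal. Neu1 had 450, 449 and 435 under PBS against 420, 457 and 468 under D-gal. Both genes overlapped between the groups. The interval of the log2 fold change was -0.12 to 0.19 for Ctsa and -0.14 to 0.17 for Neu1, and neither gene passed the test (adjusted p = 0.732 and 0.925, edgeR).

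**Figure D3:**
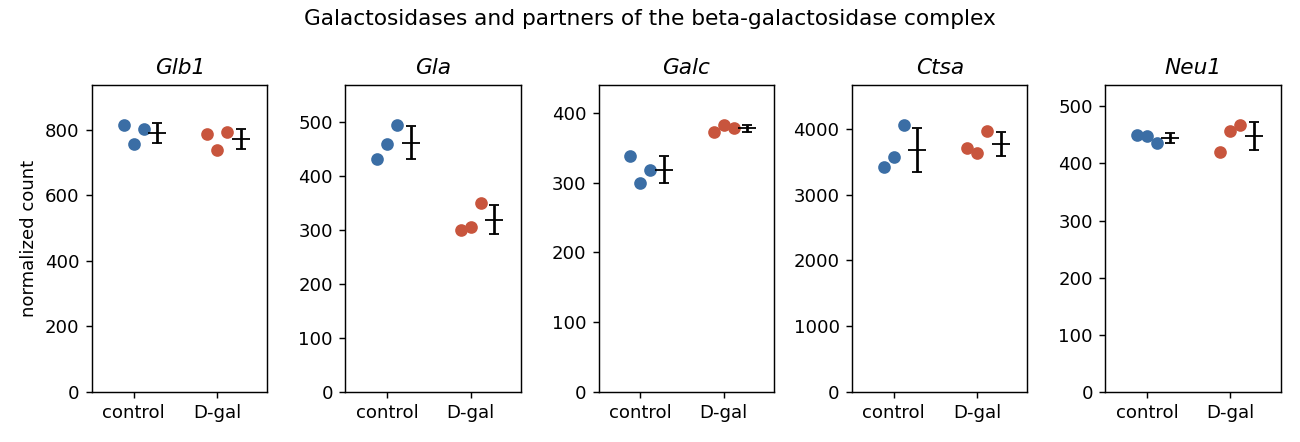
Normalized counts (linear axes from 0) of Glb1, Gla, Galc, Ctsa and Neu1 in the 3 control (blue) and 3 D-gal (red) libraries, with the mean and SD (n = 3) as black bars beside the points. Gla is lower and Galc higher in every D-gal library, while the groups overlap for Glb1, Ctsa and Neu1.

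Among the 11 other glycosidases and sulfatases, 2 were higher, 3 lower and 6 did not pass the test, with a median log2 fold change of -0.07. Of all genes tested, 16.9% were higher and 17.8% lower. Gaa encodes acid alpha-glucosidase, which degrades glycogen in the lysosome. It had 3596, 3563 and 3608 normalized counts under PBS against 4422, 4729 and 4695 under D-gal. The lowest D-gal library lay above the highest control library, and the log2 fold change was 0.36 (SE 0.04, adjusted p = 0.000194, edgeR). Idua encodes alpha-L-iduronidase, which acts on heparan and dermatan sulfate. Its counts were 148, 172 and 147 under PBS against 201, 242 and 304 under D-gal, and its log2 fold change of 0.67 (SE 0.16, adjusted p = 0.0127, edgeR) was the largest rise of the list. The gene overlaps Dgkq and Slc26a1 on the other strand, and whether counting used the strand is not given in the sources used here. The log2 fold change was 0.41 on the scale of log2(FPKM + 1), with the call kept.

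The 3 lower genes of this group act on sulfated glycosaminoglycans. Galns, encoding galactosamine-6-sulfatase, had 181, 220 and 205 normalized counts under PBS against 167, 141 and 162 under D-gal (log2 fold change -0.37, SE 0.12, adjusted p = 0.041, edgeR), a call that 8 of 13 alternatives did not give. Arsb (arylsulfatase B, log2 fold change -0.21) and Gusb (beta-glucuronidase, -0.16) were lower too. The Gusb call was lost with DESeq2 (adjusted p = 0.062), with limma on the FPKM values (adjusted p = 0.0574) and without control replicate 2 (adjusted p = 0.0541, edgeR). Arsb shares 39.6% of its words with other genes and overlaps genes on the other strand, so its value is uncertain. Hexa, Naglu, Sgsh, Ids and Arsa, whose log2 fold changes lay between -0.13 and 0.03, did not pass the test. Ids, Naglu and Sgsh, like Idua, act on heparan sulfate.

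Lipid breakdown split in both directions, with 3 higher, 3 lower and 2 not past the threshold among 8 genes. The shares over all genes tested were 16.9% higher and 17.8% lower. Smpd1 encodes acid sphingomyelinase, which makes ceramide from sphingomyelin. It had 1231, 1203 and 1196 normalized counts under PBS against 1684, 1630 and 1647 under D-gal. The spread within each group was small beside the gap, and the log2 fold change was 0.45 (SE 0.04, adjusted p = 9.58e-05, edgeR). Asah1, encoding acid ceramidase, which degrades ceramide, was lower with a log2 fold change of -0.28 (adjusted p = 0.0212, edgeR). Its D-gal libraries ranged from 1945 to 2430 normalized counts, under the control range of 2600 to 2763, and the call was lost when any of 3 libraries was left out (control replicate 2, control replicate 3 or D-gal replicate 2).

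Psap encodes prosaposin, the precursor of the saposins that present sphingolipids to hydrolases. It had 20140, 19690 and 19650 normalized counts under PBS against 16150, 15730 and 16070 under D-gal. Psap fell by 0.31 on the log2 scale (SE 0.02, adjusted p = 7.2e-05, edgeR). It took 0.115% to 0.119% of the counts of a control library and 0.0950% to 0.0969% of a D-gal library. Gm2a, encoding the GM2 activator, had 107 to 123 normalized counts under PBS against 89.8 to 96.4 under D-gal, which did not overlap, but its adjusted p was 0.0631 (edgeR). Ppt1, encoding a palmitoyl-protein thioesterase, had a log2 fold change of -0.04 and overlapping groups (adjusted p = 0.56, edgeR).

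The 2 genes of cholesterol export moved in opposite directions. NPC2 takes cholesterol inside the lysosome and hands it to NPC1 in the membrane. Npc2 had 4548, 4331 and 4186 normalized counts under PBS against 3390, 3189 and 3369 under D-gal, and fell by 0.39 on the log2 scale (SE 0.04, adjusted p = 0.000315, edgeR). Npc1 had 771, 831 and 840 under PBS against 932, 954 and 915 under D-gal (log2 fold change 0.20, SE 0.05, adjusted p = 0.0229, edgeR). Lipa, encoding the acid lipase that frees the cholesterol from its esters, had 1805, 1674 and 1717 under PBS against 1936, 1948 and 1883 under D-gal (log2 fold change 0.15, SE 0.04, adjusted p = 0.0236, edgeR). None of these 3 genes overlapped between the groups. Over all genes tested, 25.0% were without overlap and lower, and 24.1% without overlap and higher. The Npc1 call was lost in 4 and the Lipa call in 5 of 13 alternatives, while the Npc2 call was kept in all 13, and Npc1 overlaps Rmc1 and Gm15956 on the other strand.

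The proteases held both the largest fall and 2 of the 3 largest rises among the genes called. Of 11 genes, 10 could be tested, and 6 were lower, 2 higher and 2 not past the threshold. Over all genes tested, 17.8% were lower and 16.9% higher. Ctsl encodes cathepsin L, a cysteine endopeptidase. It had 5577, 5620 and 5722 normalized counts under PBS against 3933, 3725 and 3738 under D-gal. It fell by 0.57 on the log2 scale (SE 0.03, adjusted p = 1.76e-05, edgeR) and ranked 123 by p among the 13407 genes. Ctsl shares 28.2% of its words with other genes and overlaps genes on both strands. Ctsk, encoding the collagen-degrading cathepsin K, had 230, 233 and 219 under PBS against 150, 156 and 207 under D-gal (log2 fold change -0.41, SE 0.13, adjusted p = 0.0434, edgeR). The third D-gal library lay near the control range, and 8 of 13 alternatives did not give the call.

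Cathepsins F and H were higher. Ctsf had 338, 364 and 388 normalized counts under PBS against 520, 521 and 622 under D-gal (log2 fold change 0.61, SE 0.09, adjusted p = 0.00171, edgeR). Ctsh, encoding an aminopeptidase of the same family, had 213, 176 and 220 under PBS against 279, 308 and 301 under D-gal (log2 fold change 0.55, SE 0.11, adjusted p = 0.00554, edgeR). Neither gene overlapped between the groups, and both kept their call in all 13 alternatives. Of all genes tested, 24.1% had all D-gal values over the highest control value.

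Ctsb and Ctsd, which are also abundant, had smaller fold changes than Ctsl. Ctsb, encoding cathepsin B, had 7033, 6940 and 7229 normalized counts under PBS against 6370, 6376 and 6139 under D-gal (log2 fold change -0.17, SE 0.03, adjusted p = 0.00464, edgeR). Ctsd, encoding the aspartic protease cathepsin D, had 11370, 11440 and 11570 under PBS against 11230, 11950 and 11920 under D-gal. Its groups overlapped, and the interval of its log2 fold change reached from -0.04 to 0.10. Ctsd shares 33.2% and Ctsb 13.0% of their words with other genes. Tpp1 (tripeptidyl peptidase 1, log2 fold change -0.24), Lgmn (legumain, -0.13) and Ctsz (cathepsin Z, -0.10) were lower, and the calls of Lgmn and Ctsz were each lost in 10 of 13 alternatives.

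Ctss, encoding cathepsin S, a protease of antigen-presenting cells, did not pass the filter and was not tested. It had 38 counts in control replicate 1, 9 and 10 in the other control libraries and 8 or 9 in each D-gal library. The library with most Ctss was the one with most Lyz2 and Csf1r. Cd68, a lysosomal membrane protein of macrophages, had 167, 91 and 51 counts in control replicates 1 to 3 and 48 to 57 in the D-gal libraries. Their part in the results on the other lysosomal genes was not tested. Without control replicate 1 the list had 16 lower genes in place of 19 and a median log2 fold change of -0.0857 in place of -0.0935. In that fit 3711 of all genes passed the adjusted p, in place of 4661.

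Progranulin, a secreted protein that is cut into granulins in the lysosome, was lower. Grn had 2728, 3133 and 3197 normalized counts under PBS against 2487, 2348 and 2656 under D-gal. The groups came close but did not overlap, and the log2 fold change was -0.27 (SE 0.07, adjusted p = 0.0173, edgeR). The adjusted p was 0.0603 without control replicate 2, 0.058 without control replicate 3 and 0.0586 without D-gal replicate 2.

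In each of the 5 listed membrane protein genes all D-gal values were under the lowest control value, and 4 passed the test. Of all genes tested, 25.0% had all D-gal values under the lowest control value and 17.8% passed as lower. The 24 other lysosomal membrane protein and transporter genes tested did not share this pattern. In 6 of them all D-gal values were under the lowest control value, and 5 were called lower and 5 higher. Lamp1, a heavily glycosylated protein that coats the inner face of the membrane, had 14850, 15310 and 15970 normalized counts under PBS against 14270, 13420 and 14000 under D-gal. Its log2 fold change was -0.15 (SE 0.04, adjusted p = 0.0164, edgeR). Lamp2, its homolog with a role in chaperone-mediated autophagy, had 8023, 7561 and 8297 under PBS against 6292, 6279 and 6812 under D-gal. Its fall was larger, at -0.30 (SE 0.05, adjusted p = 0.00182, edgeR). Scarb2 encodes LIMP-2, the receptor that brings glucocerebrosidase to the lysosome, and had 1158, 1125 and 1159 under PBS against 917, 883 and 881 under D-gal (log2 fold change -0.36, SE 0.04, adjusted p = 0.000618, edgeR). Mcoln1, the calcium channel TRPML1, had 586 to 596 under PBS against 479 to 492 under D-gal (log2 fold change -0.29, adjusted p = 0.00425, edgeR). Cd63, a tetraspanin, had a log2 fold change of -0.12 and an adjusted p of 0.054 (edgeR), which became 0.0105 without control replicate 1. The call of Lamp1 was lost without control replicate 3 (adjusted p = 0.0515, edgeR) and without D-gal replicate 2 (adjusted p = 0.0522, edgeR).

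The proton pump moved little in the listed genes. Atp6v0d1, a subunit of the membrane sector, had 1531 to 1625 normalized counts under PBS against 1360 to 1468 under D-gal (log2 fold change -0.19, adjusted p = 0.0176, edgeR), and lost its call in 5 of 13 alternatives. Atp6v1a, the catalytic subunit, had an interval from -0.11 to 0.06 around a log2 fold change of -0.02. Atp6v1h had a log2 fold change of 0.11 (adjusted p = 0.075, edgeR) with D-gal libraries all above the control libraries. Atp6ap1, an accessory subunit, varied too much to compare: it had 2398, 3318 and 2042 under PBS against 2087, 2347 and 3192 under D-gal.

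None of the 3 transcription factors of the TFEB family passed the test, with edgeR or with DESeq2, and the smallest unadjusted p among them was 0.1 in the edgeR fit over all genes. Tfeb had 123, 120 and 119 normalized counts under PBS against 118, 137 and 117 under D-gal, with an interval of its log2 fold change from -0.22 to 0.30. Tfe3 had 1786, 1733 and 1739 under PBS against 1790, 1756 and 1810 under D-gal, with a narrower interval from -0.06 to 0.11. Mitf had 116, 125 and 47.5 under PBS against 158, 131 and 141 under D-gal, without overlap. The third control library stood apart from the other two, the adjusted p was 0.191 (edgeR), and the log2 fold change of 0.56 was 0.25 without that library. These values are of mRNA and do not show where the proteins were in the cell.

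**Figure D4:**
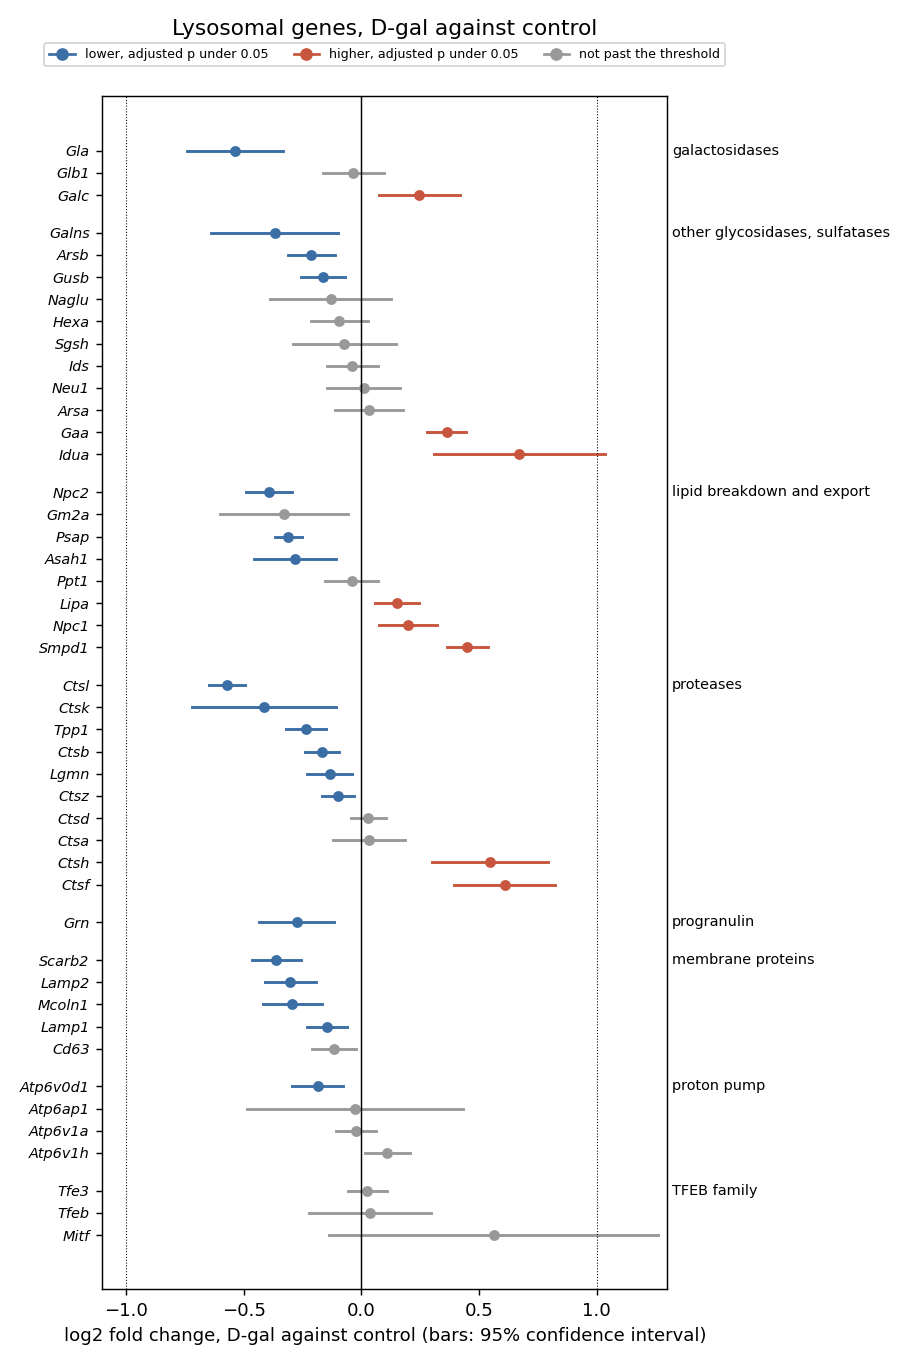
Log2 fold change of each of the 45 tested lysosomal genes in the D-gal against the control group (points) with its 95% confidence interval (bars), grouped by role; blue, lower and red, higher at an adjusted p under 0.05; grey, not past the threshold; dotted lines mark a log2 fold change of 1 in size. All points lie between -0.57 and 0.67, and the 5 membrane proteins all lie below 0.

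Levels were compared between genes only per length, in the FPKM values the authors deposited. In the control group the highest means were those of Cd63 (481 FPKM), Lamp1 (401 FPKM), Psap (292 FPKM), Ctsd (174 FPKM), Ctsl (168 FPKM) and Ctsz (132 FPKM). The lowest means were 0.770 FPKM for Tfeb, 0.557 FPKM for Mitf and 0.552 FPKM for Ctss, while Tfe3 had 4.99 FPKM and ranked 35 of 46. Among the galactosidases Glb1 had 19.4 FPKM, Gla 8.15 FPKM and Galc 4.91 FPKM in the control group, and 19.4, 5.76 and 5.97 FPKM in the D-gal group. The order of Gla and Galc in the D-gal group depends on the length used, since with the union of the annotated exons as the length Gla had 5.88 and Galc 1.53 on the same scale. Of the 10 genes with the highest FPKM in the control group, 9 were among the 10 highest in the D-gal group. With the union of the annotated exons as the length, 7 of the 10 stayed among the highest, and Psap took the place of Cd63 at the top, so the order depends on the length used.

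The other genes of the organelle, were described by 99 genes listed by function. Of the 91 tested, 27 were lower (17.8% of all genes tested were), 14 were higher (16.9% of all were) and 50 were not past the threshold, with a median log2 fold change of -0.06. Among 28 other hydrolases, 9 were lower and 4 higher. Scpep1, a serine carboxypeptidase, was lower (log2 fold change -0.32), as was Dpp7, a dipeptidyl peptidase (-0.70), whereas Fuca1, the alpha-fucosidase, was higher (0.39). Among 24 other membrane proteins and transporters, 5 were lower and 5 higher, or 20.8% in each direction, beside 17.8% lower and 16.9% higher of all genes tested. Laptm4b, a membrane protein of late endosomes and lysosomes, was higher (0.57), and Litaf (-0.45) and the chloride-proton exchanger gene Clcn7 (-0.32) were lower.

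Of the 16 other proton pump subunits tested, 5 were lower and 2 higher, beside 17.8% lower and 16.9% higher of all genes tested. Atp6v0e2, one of a pair of small membrane-sector subunits, had 184, 193 and 215 normalized counts under PBS against 391, 422 and 415 under D-gal. Its log2 fold change of 1.05 (SE 0.09, adjusted p = 8.6e-05, edgeR) made it the 1 gene among the 91 that met the study's criterion. Atp6v0e, the other of the pair, had a log2 fold change of -0.01. Atp6ap2 (-0.35) and Atp6v0c (-0.36) were lower. With the listed subunits included, 6 of 20 pump genes were lower and 2 higher.

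The genes that tag and sort the hydrolases changed in both directions, 4 lower and 3 higher of 9. For all genes tested, the shares were 17.8% lower and 16.9% higher. Gga2 encodes an adaptor that loads mannose 6-phosphate receptors into vesicles at the Golgi. It had 1191, 1089 and 1130 normalized counts under PBS against 597, 588 and 576 under D-gal (log2 fold change -0.95, SE 0.05, adjusted p = 1.5e-05, edgeR). Sort1, a receptor that carries hydrolases without the tag, had 256, 233 and 265 under PBS against 372, 413 and 403 under D-gal (log2 fold change 0.66). M6pr, the small mannose 6-phosphate receptor, was higher (0.27). Gm44987 overlaps Gga2 on the opposite strand, and 10.6% of the words of Gga2 occur elsewhere. Of the 14 genes tested of nutrient sensing at the lysosome, 4 were lower and the other 10 did not pass the test (edgeR). The lower genes included Fnip1 (log2 fold change -0.20), Fnip2 (-0.32) and Rragd (-0.85), whose products act with folliculin on the path from amino acids to TFEB and mTORC1.

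Sequence shared with other annotated genes may limit some of these values, though no reads were examined. Words were matched on either strand, so an overlapping gene on the other strand can add to the share. Of the 46 genes, 12 share more than 5% of their words of 31 bases with other annotated genes, with the highest shares in Arsb (39.6%), Ctsd (33.2%), Ctsl (28.2%), Sgsh (19.9%) and Arsa (16.9%). The annotation places another gene over 15 of them on the other strand and over 3 (Glb1, Ctsd and Ctsl) on the same strand.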

How the data were processed

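RNA of 6 NOR-10 samples, 3 control and 3 D-gal, was sequenced. The paper calls this mRNA sequencing but names a small RNA library kit in its methods, and the labels name a different kit. The authors aligned the reads (HISAT2 2.0.4, per the submitters' processing notes) and deposited counts per gene and FPKM values side by side in 1 table. The counting tool, strandedness and genome build are not given in the sources used here, but gene positions fit GRCm38 (GENCODE M21), where 31 of the 46 genes lie at the same start and end.

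Deposited counts were filtered with filterByExpr, scaled by TMM and tested with edgeR 4.0.16 (quasi-likelihood, R 4.3.3), with Benjamini-Hochberg adjustment over 13407 genes. The alternatives used DESeq2 1.42.0 and limma 3.58.1, the latter on log2(FPKM + 1) of the FPKM values the authors deposited. Normalized counts are counts scaled to the mean TMM-adjusted library size. The genes and lists were chosen with earlier results of these data known. Named were 13 fixed genes, the 8 largest called rises and falls (groups without overlap, at least 100 counts in each library of the higher group) and the 3 smallest p-values in each other list. Atp6v0e and the marker genes singled out were chosen after their values were seen. Shared words are runs of 31 bases of a gene's exons that occur, on either strand, in another gene.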

Additional observations from a re-analysis of the deposited data

How the results depend on the processing

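None of the 27 called genes reversed in any of the 13 alternatives, and the number meeting the study's criterion was 0 in all. With DESeq2, 14 members were lower and 5 higher, and 3868 of all genes passed in place of 4661. At an adjusted p under 0.01, 10 members were lower and 4 higher, the other lysosomal genes gave 15 and 8, and 2729 of all genes passed in place of 4661. Among genes with a mean of at least 500 normalized counts, 16 members were lower and 4 higher, and 7 other lysosomal genes were higher. Of all such genes, 2836 passed and 89 met the study's criterion, in place of 564 without this limit. With limma on log2(FPKM + 1) over all genes tested, 120 met the criterion and the members' median log2 fold change was -0.06 (-0.0583). Leaving out 1 library gave 11 to 16 lower and 5 to 7 higher members and a median of -0.13 to -0.07 (-0.1258 to -0.0745). The replicate block gave 14 lower and 7 higher, ending the calls of Galc, Galns, Ctsk, Ctsz, Lgmn and Atp6v0d1. With the block, 3982 of all genes passed in place of 4661. Same-numbered libraries correlated at 0.0086 to 0.0353 in their deviations, and libraries with unlike numbers at -0.0228 to 0.0072. All lie near 0, although the same-numbered ones are the highest. The libraries were not treated as pairs in the main fit, and the replicate block is given as an alternative. Genes without a call changed sign as follows. With limma, Glb1 was 0.0005, Atp6v1a 0.0113 and Atp6ap1 0.0151, and with thinned counts Neu1 was -0.0134 and Tfeb -0.0156. Leaving out 1 library gave -0.0168 to 0.1082 for Ctsa, -0.022 to 0.0548 for Neu1, -0.0057 to 0.0786 for Arsa, -0.1299 to 0.0189 for Sgsh, -0.224 to 0.1953 for Atp6ap1 and -0.0395 to 0.0753 for Tfeb. The causes were not tested. With 3 libraries a group, the exact permutation test cannot go below 0.1.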
